A study of Arabidopsis thaliana with 3 samples.

Results

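Transcripts of 5 WRKY factors (WRKY40, WRKY33, WRKY53, WRKY18 and WRKY70) and 2 C2H2 zinc finger proteins (ZAT10 and ZAT12) were followed in sorted root cells of Arabidopsis thaliana. The 7 genes had been chosen as fast responders to wounding and stress, and each was read by 1 probe set of the 22810 on the array. The cells came from wild type Columbia seedlings aged 6 days. They are labelled mature endodermis and were sorted as protoplasts for the green fluorescence of a marker line, named E30 in the series text. There were 3 biological replicates with 1 array each and no other group, so no treated, undigested or unsorted cells stand beside them. Levels present in the intact root and levels reached during cell wall digestion and sorting therefore cannot be told apart.

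WRKY proteins bind the W-box, a short DNA element found in the promoters of many defence genes and of WRKY genes themselves. Pathogens, wounding and elicitors switch several of them on quickly, partly through mitogen-activated protein kinases. ZAT10 and ZAT12 are small zinc finger proteins with a repression motif, known for rapid induction by salt, cold, high light, reactive oxygen and wounding. The preparation of protoplasts cuts and digests the tissue, and early stress genes are known to respond to such handling.

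The platform annotation used here names 2 of the 7 probe sets, 254231_at as WRKY53 and 261648_at as STZ, another name of ZAT10. The other 5 carry the gene names given in the rule that chose them: 261892_at for WRKY40 (AT1G80840), 267028_at for WRKY33 (AT2G38470), 253485_at for WRKY18 (AT4G31800), 251705_at for WRKY70 (AT3G56400) and 247655_at for ZAT12 (AT5G59820). These 5 assignments were not tested against probe sequences. The reference gene table lists ZAT12 under its other name, RHL41.

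All 7 transcripts gave clear signal in every array, and 5 of them, those of ZAT12, WRKY40, ZAT10, WRKY33 and WRKY18, lay among the brightest probe sets. Each was set against a reference level, the 90th percentile of 27 control probe sets for Bacillus subtilis genes. This level was a signal of 14.2, 13.1 and 12.3 in replicates 1, 2 and 3. By limma, with adjusted p-values under 0.05, all 7 lay above it, and so did 69.1% of the 22746 plant probe sets. A stricter base was the array median over the plant probe sets, a signal of 55.1, 53.3 and 64.7. All 7 lay above it as well and 0 below, against 38.9% of the plant probe sets above and 37.8% below. The median of the 7 was 6.14 (log2) over the array median, while that of all plant probe sets was -0.02. Since each probe set has its own response, these positions do not rank the transcripts by abundance.

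**Figure D1:**
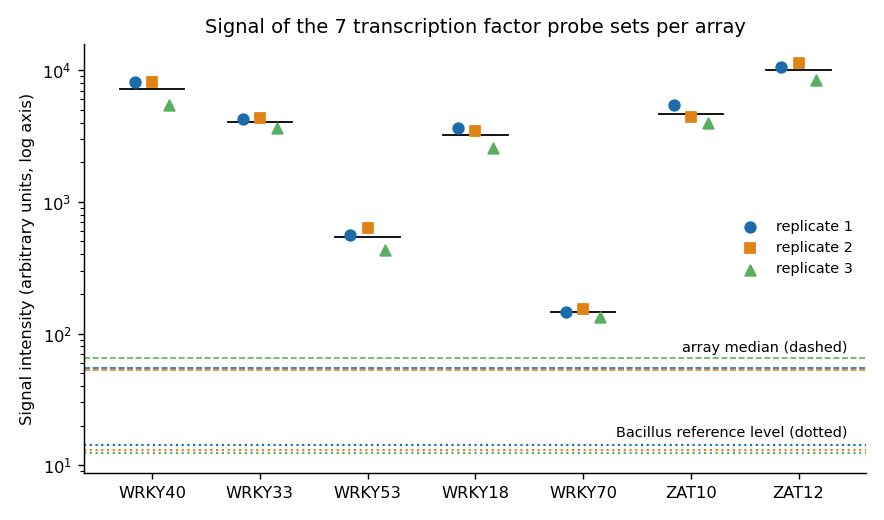
Signal intensity (arbitrary units, log axis) of the 7 probe sets in each of the 3 arrays, with the arithmetic mean as a black bar, the array medians as dashed lines and the Bacillus reference levels as dotted lines in the colour of each array. Every point lies above all 3 array medians, and the triangle of replicate 3 is the lowest of the 3 points for each gene.

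ZAT12 takes part in the response to high light and oxidative stress, and is needed for induction of the ascorbate peroxidase gene APX1 under such stress. Its signal was 10535, 11227 and 8392 in replicates 1, 2 and 3. In the order of signal among the 22746 plant probe sets it took place 14, 13 and 28. The mean was 10051 ± 1478 (SD, n = 3), which was 757-fold over the reference level. That fold depended on the setting, from 342-fold with log2(signal + 16) to 1209.5-fold with a Bacillus percentile of 75, and those of the other 6 genes below moved in the same way. The log2 difference from the array median was 7.44 ± 0.23 (SE) (adjusted p = 0.000173, limma).

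ZAT10, also called salt tolerance zinc finger, is a transcriptional repressor induced by salt, drought and cold. Its signal was 5422, 4415 and 3977 in replicates 1, 2 and 3, with a mean of 4605 ± 741 (SD, n = 3). Replicate 1 lay above replicate 2 by 0.30 (log2), the widest gap between these arrays among the 7 genes, and replicate 3 was lowest. Over the array median it lay 6.31 ± 0.23 (log2, SE), at the same adjusted p as ZAT12 (0.000173, limma). Places 146, 192 and 181 in the order of signal put it within the top percent of plant probe sets in all 3 arrays.

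WRKY40 and WRKY18 are closely related proteins that form complexes with each other, limit basal defence against biotrophic pathogens and act in abscisic acid signalling. WRKY40 had a signal of 8055, 8148 and 5465 in replicates 1, 2 and 3, with a mean of 7223 ± 1523 (SD, n = 3). WRKY18 had a signal of 3610, 3475 and 2568, with a mean of 3217 ± 567 (SD, n = 3). For both, replicates 1 and 2 lay close together and replicate 3 stood apart below them. Their deviations from their own means differed by a root mean square of 0.057 (log2) over the 3 arrays, against 0.038 for the closest pair of the 7 genes (WRKY33 and WRKY70) and 0.214 for the farthest (WRKY53 and ZAT10). WRKY40 lay 6.95 ± 0.26 and WRKY18 5.79 ± 0.25 (log2, SE) over the array median, each at adjusted p = 0.000173 by limma. In signal order WRKY40 took place 52, 41 and 101, and WRKY18 place 278, 286 and 374.

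WRKY33, a target of the kinases MPK3 and MPK6, is needed for resistance to necrotrophic fungi and activates genes of camalexin synthesis. Its signal was 4220, 4316 and 3653 in replicates 1, 2 and 3, with a mean of 4063 ± 358 (SD, n = 3). The 3 arrays thus stayed within 1.18-fold of each other. It lay 308-fold over the reference level and 6.14 ± 0.22 (log2, SE) over the array median (adjusted p = 0.000173, limma). It held place 220, 200 and 210 in the order of signal, so its position hardly moved between arrays.

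WRKY53, a promoter of leaf senescence that also acts in defence, had an intermediate signal of 557, 635 and 430 in replicates 1, 2 and 3. The mean of 541 ± 104 (SD, n = 3) was 40.5-fold over the reference level. It lay 3.22 ± 0.25 (log2, SE) over the array median (adjusted p = 0.000446, limma). Between 86.7% and 90.5% of plant probe sets had a lower signal in the same array.

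WRKY70, which promotes salicylate-dependent and restrains jasmonate-dependent defence, gave the lowest signal of the 7. Its values were 145.7, 154.8 and 134.5 in replicates 1, 2 and 3, with a mean of 145.0 ± 10.2 (SD, n = 3). This was 11.0-fold over the reference level and 2.52-fold over the array median. The log2 difference from the array median was 1.33 ± 0.21 (SE) (adjusted p = 0.00420, limma). Against the median of only those plant probe sets whose mean exceeded the reference level, the difference shrank to 0.67, with an adjusted p of 0.0337 in the same test.

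**Figure D2:**
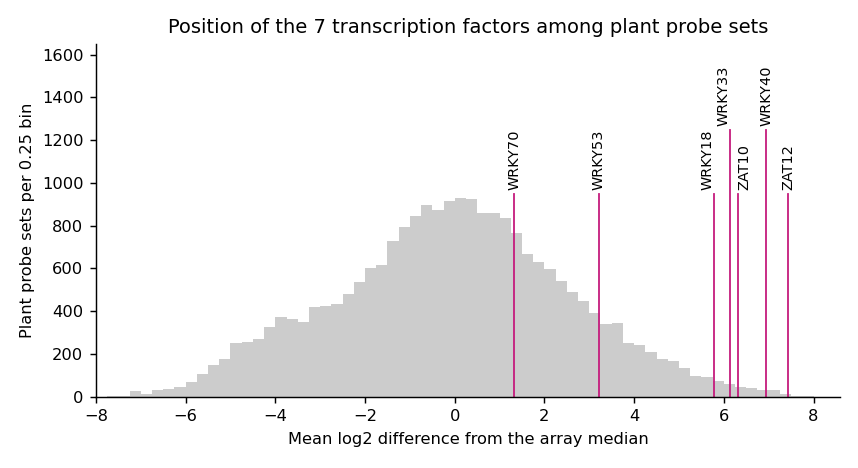
Number of plant probe sets (vertical axis, per bin of 0.25) by their mean log2 difference from the array median (horizontal axis), with a labelled line for each of the 7 transcription factors. WRKY18, WRKY33, ZAT10, WRKY40 and ZAT12 stand in the right tail between 5.79 and 7.44, WRKY53 at 3.22, and WRKY70 at 1.33 on the shoulder of the distribution.

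Replicate 3 gave the lowest signal of the 3 arrays for all 7 genes, against 24.2% of plant probe sets. Its deviation from each gene's mean ran from -0.38 (log2) for WRKY40 to -0.11 for WRKY70, with a median of -0.25. The mean of replicates 1 and 2 lay above replicate 3 by 1.48-fold for WRKY40, 1.38-fold for WRKY53 and WRKY18, 1.30-fold for ZAT12, 1.23-fold for ZAT10, 1.17-fold for WRKY33 and 1.12-fold for WRKY70. The highest array was replicate 2 for 5 genes and replicate 1 for the other 2, WRKY18 and ZAT10. Of the 22746 plant probe sets, 6363 were highest in replicate 2 and 6606 in replicate 1. No test was made of these differences, which set 1 array against another within the only group.

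Part of that deviation was shared with other probe sets of like level. Each gene was set beside the 500 plant probe sets nearest to it in mean log2 signal. At the levels of WRKY40, ZAT12, ZAT10, WRKY33 and WRKY18, between 52.8% and 54.0% of these neighbours were also lowest in replicate 3, with median deviations between -0.13 and -0.11. At the level of WRKY53 31.2% were, and at that of WRKY70 16.0%. There the neighbours' median deviation was 0.00 and 0.13 while WRKY53 and WRKY70 deviated by -0.31 and -0.11. Of the neighbours, 8.2% lay lower in replicate 3 than WRKY40 and 10.8% lower than WRKY53, but 44.4% lay lower than WRKY33. WRKY40 and ZAT12 share the same neighbours, the brightest probe sets, with mean signals from 2177 to 14540.

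After quantile normalization, which gives the arrays 1 common distribution, 5 of the 7 were still lowest in replicate 3, against 32.1% of plant probe sets. WRKY33 was then lowest in replicate 1 and ZAT10 in replicate 2. The deviations of replicate 3 became -0.34 for WRKY53, -0.26 for WRKY40, -0.25 for WRKY70, -0.20 for WRKY18 and -0.14 for ZAT12. Those of ZAT10 and WRKY33 were -0.04 and -0.004.

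**Figure D3:**
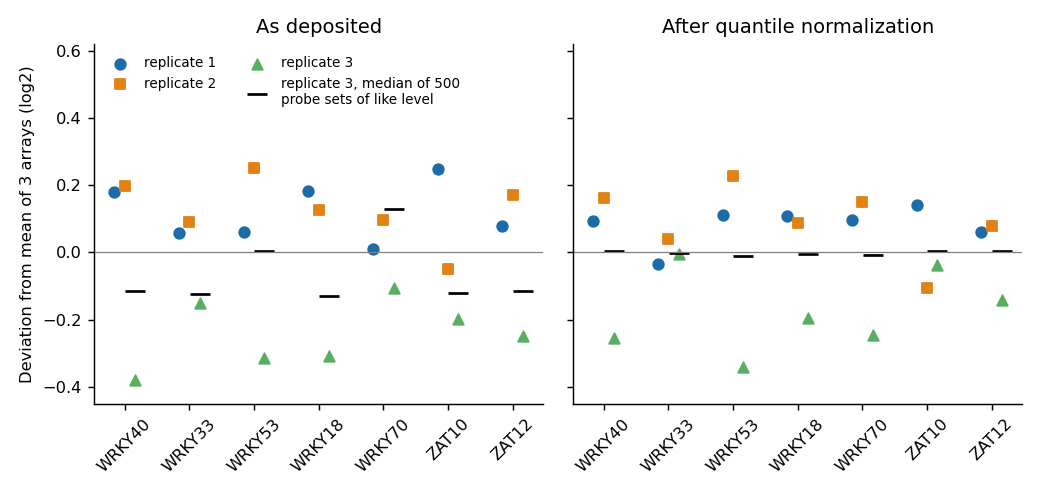
Deviation of each array from the gene's mean over the 3 arrays (vertical axis, log2) for the 7 genes, as deposited (left) and after quantile normalization (right), with black dashes for the median deviation of replicate 3 among 500 plant probe sets of like level. On the left every triangle (replicate 3) is the lowest point of its gene, and on the right WRKY33 and ZAT10 are the exceptions.

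Other signals also differed between the arrays. Ubiquitin control probe sets were lowest in replicate 3 in 5 of 5 cases, with a median deviation of -0.20 (log2). Actin and GAPDH control probe sets were lowest there in 0 of 6 and 0 of 5 cases, at 0.31 and 0.19. Of all plant probe sets 24.2% were lowest there. Probe sets of the same control read the same kind of transcript repeatedly, so these cases are not separate genes. The median log2 ratio of 3′ to 5′ signal over 6 pairs of control probe sets was 2.89, 2.93 and 2.85 in replicates 1, 2 and 3. Single pairs moved in both directions behind that median. Of the actin pairs, 1 fell from 4.05 to 3.42 and 3.21 while the other rose from 3.24 to 3.39 and 3.55. The lower of the GAPDH pairs stood at 1.70, 1.64 and 1.17. The part of these array differences in the low values of the 7 genes was not tested. In sorted bulk cells, a lower signal from fewer cells expressing a gene and one from less RNA per cell cannot be told apart.

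Few of the cell type markers listed for this work had a named probe set. Of 15 endodermis markers only GSO1, a receptor kinase needed for an unbroken Casparian strip, was matched, with a signal of 3421, 5068 and 5823 in replicates 1, 2 and 3. It lay 6.34 ± 0.23 (log2, SE) over the array median (adjusted p = 0.000173, limma). Both listed cortex loci lay below the array median in limma's test, as did 37.8% of all plant probe sets. AT1G62500, at 12.2, 28.7 and 10.6, was not distinguished from the reference level (adjusted p = 0.579 in limma's test). AT1G09750, at 12.3, 4.05 and 4.02, lay below the reference level (adjusted p = 0.0347 in the same test). The root hair expansin genes EXPA7 and EXPA18, 2 of 5 epidermis and hair markers, were highest in replicate 3. EXPA7 had a signal of 18.0, 71.5 and 192.0, and EXPA18 of 34.1, 54.9 and 146.5. Both lay above the reference level (adjusted p = 0.0331 and 0.00804, limma), as did 69.1% of all plant probe sets. Neither was distinguished from the array median (adjusted p = 0.864 and 0.706 in the same test). Their summed signal was 52.1, 126.3 and 338.6 in replicates 1, 2 and 3. It was highest in the array where the 7 transcription factors were lowest, and so was the signal of GSO1. The part of either in the values of the 7 genes was not tested. Phloem, xylem, stele and root cap markers had no named probe set here, so the label mature endodermis could be set against these 5 markers only.

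**Figure D4:**
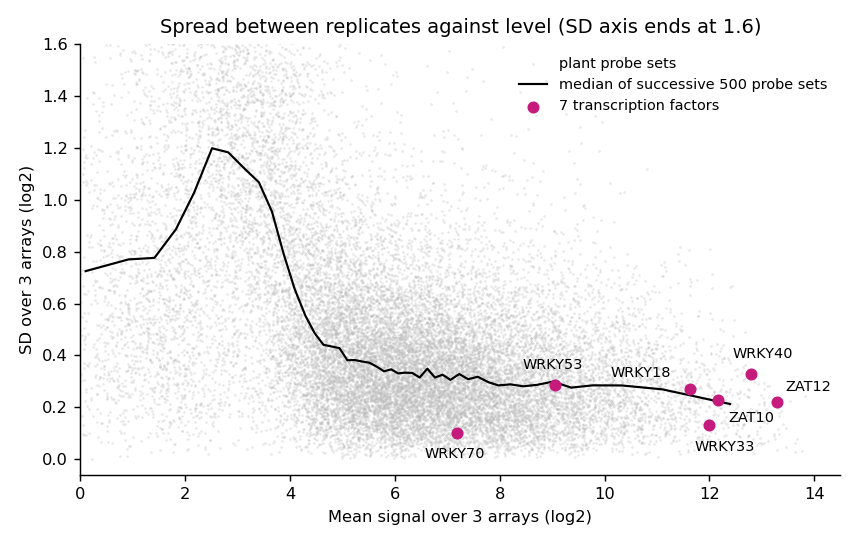
SD of log2 signal over the 3 arrays (vertical axis) against mean log2 signal (horizontal axis) for the plant probe sets in grey, with a black line for the median of successive groups of 500 and the 7 transcription factors in colour. WRKY70 and WRKY33 lie below the line and WRKY40 above it, while 1266 of 22746 plant probe sets fall outside the axes.

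The spread between the replicates differed among the 7 genes. The highest and lowest arrays differed by less than 2-fold for all 7, as they did for 63.5% of plant probe sets. The SD of log2 signal was 0.33 for WRKY40, 0.29 for WRKY53, 0.27 for WRKY18, 0.23 for ZAT10, 0.22 for ZAT12, 0.13 for WRKY33 and 0.10 for WRKY70. The median SD of the neighbours of like level lay between 0.23 and 0.31. WRKY40 varied more than 73.4% of its neighbours, and WRKY18, ZAT10, ZAT12 and WRKY53 more than 45.4% to 51.2% of theirs. WRKY33 and WRKY70 varied more than 17.4% and 7.0% of theirs. With 3 arrays these shares rested on single arrays. Without replicate 3 the share was 3.4% for WRKY40, 9.8% for WRKY18 and 19.0% for ZAT12, and without replicate 1 it was 49.4% for WRKY33, 34.6% for WRKY70, 77.4% for WRKY53 and 74.0% for ZAT12. For ZAT10 it ran from 30.0% without replicate 1 to 69.8% without replicate 2. The SDs also depended on the scaling. After quantile normalization that of WRKY70 was 0.22 and that of WRKY33 0.037, larger than those of 33.0% and 2.8% of their neighbours. Those of WRKY18, ZAT10 and ZAT12 were then 0.17, 0.13 and 0.12.

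Other WRKY factors did not all share the high signal. Of 62 further genes named WRKY in the reference table, 5 had a named probe set. Of these, 3 lay above the array median and 1 below it in limma's test, and 4 lay above and 1 below the reference level, where the shares over all plant probe sets were 38.9% and 37.8% for the median and 69.1% above the reference level. WRKY6, which acts in senescence and phosphate homeostasis, had a signal of 897, 1114 and 542 in replicates 1, 2 and 3, and lay 3.83 ± 0.32 (log2, SE) over the array median (adjusted p = 0.000544, limma). WRKY22, which acts downstream of flagellin perception, had 398, 293 and 286, a difference of 2.49 ± 0.23 (adjusted p = 0.000760, limma). WRKY42, another regulator of phosphate homeostasis, had 5.47, 5.34 and 5.35, below the array median and below the reference level (adjusted p = 0.00300 for the latter, limma). WRKY47, at 79.0, 82.8 and 69.6, did not pass in either direction against the median (adjusted p = 0.135, limma). WRKY20, named here after its values were seen to complete the count, had 110.2, 99.4 and 146.2 and lay above the median (adjusted p = 0.00770, limma). WRKY6, WRKY22 and WRKY47 were lowest in replicate 3, as were 24.2% of all plant probe sets, and WRKY20 and WRKY42 in replicate 2. The margin to the next array was small for WRKY22, and replicates 2 and 3 were all but equal for WRKY42.

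Of 9 listed relatives of the zinc finger genes, 2 had a named probe set. Both lay above the array median in limma's test, as did 38.9% of all plant probe sets. AT3G53600 had a signal of 2093, 1715 and 1139 in replicates 1, 2 and 3 and lay 4.80 ± 0.29 (log2, SE) over the median (adjusted p = 0.000240). AT2G28200 had 358.7, 340.4 and 382.6 and lay 2.65 ± 0.19 over it (adjusted p = 0.000361). The reference table gives neither locus a gene name. AT3G53600 was lowest in replicate 3, as ZAT10 and ZAT12 were, and AT2G28200 was highest there.

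From the list of 29 other early wound and stress genes, only CML38 could be matched. It encodes a calmodulin-like protein induced by wounding. Its signal was 1736, 1101 and 1129 in replicates 1, 2 and 3, which was 4.49 ± 0.25 (log2, SE) over the array median (adjusted p = 0.000210, limma). From 15 kinases, receptors and partners that act upstream of WRKY factors, only BIK1, a cytoplasmic kinase that relays the signal of immune receptors, was matched, at 116.3, 84.9 and 123.8. It lay 0.90 ± 0.20 over the median (adjusted p = 0.0135, limma). Both were lowest in replicate 2, by a small margin for CML38. None of 4 listed targets of WRKY33 or ZAT12 had a named probe set.

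The probe sets whose deviations over the 3 arrays were most like the median profile of the 7 genes (0.08, 0.13 and -0.25 log2 in replicates 1, 2 and 3) were sought among 17835 others whose mean exceeded the reference level. The nearest was AT1G78280, with a signal of 387.9, 398.5 and 308.1 and a root mean square distance of 0.015 (log2). The other named genes among the nearest 5 were BZIP53, a transcription factor of the bZIP family, with 4391, 4476 and 3465, and AT2G45180, with 98.12, 99.99 and 77.35, both at 0.017. The remaining 2, 244909_at and 261072_at, have no gene name here. The 7 genes themselves made this profile, so their own distances to it are partly fixed by construction. Of the 7, ZAT12 lay nearest, at 0.025, and its deviations in replicates 1 and 3 were themselves the medians. Among the 17835 probe sets, which took no part in the profile, 50 were nearer still. ZAT10 lay farthest, at 0.144, with 1933 nearer. With only 3 arrays many probe sets share any given profile.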

How the data were processed

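RNA from sorted protoplasts was amplified in a two-cycle protocol and hybridised to Affymetrix arrays, per the labels' protocols. The authors deposited linear signal intensity for 22810 probe sets in 1 column per array. The submitters' processing notes name MAS5. The sources used here state neither its version nor its scaling target or detection calls. The number of arrays limits the precision.

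Here signals were taken to log2 with no pseudocount. For 22746 plant probe sets (all but 64 controls), the difference from each array's reference level or median was compared with 0 in an intercept model (limma 3.58.1, R 4.3.3, eBayes, two-sided, Benjamini-Hochberg over all plant probe sets). Gene names came from the platform annotation through a TAIR10.1 gene table: 13513 plant probe sets had 1 gene, 503 several and 8730 none listed. Named beyond the 7 genes were list genes (the 2 highest and 2 lowest per list) and the 5 nearest profiles. The 7 genes and the lists were chosen with earlier results of these data known. Labels call the arrays biological replicates without saying how seedlings were divided, so p-values refer only to the spread between these samples. The p-values and SEs use variances that eBayes moderated over all tested probe sets, not a gene's own spread alone. No sequences are shown.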

Additional observations from a re-analysis of the deposited data

How the results depend on the processing

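All 7 genes stayed above the reference level and above the array median, or the base used in its place, under each alternative tried. The adjusted p was under 0.05 in limma's test throughout. Other bases were the Bacillus percentiles 75 and 95, the highest Bacillus probe set, 1 level for all arrays and replacements of the array median. With percentile 75 and with the highest Bacillus probe set, eBayes gave every probe set the same SE (0.54 and 0.58). A gene's own spread thus had no weight in the p-values of these 2 settings. Other settings were quantile normalization, log2(signal + 16), a trend in eBayes, fewer probe sets tested and 1 array left out (7 genes each time). Over these settings 51.2% to 90.4% of the probe sets tested lay above the reference level in the same test. For the array median or its replacement the share was 29.4% to 51.6%. The 90.4% and the 51.6% both came from testing only probe sets whose mean exceeded the reference level. That filter largely fixed the 90.4% and by its construction raised the share above the array median. Without it the highest share above the array median was 41.1%, with the pseudocount. The lowest difference from the reference level was 2.46 (WRKY70 with the pseudocount). From the array median itself the lowest was 1.13, again for WRKY70 with the pseudocount. Against the median of only the probe sets above the reference level, WRKY70 differed by 0.67. The fold over the reference level ran from 342 to 1209.5 for ZAT12 and from 5.50 to 17.6 for WRKY70. The count of genes lowest in replicate 3 was 5 after quantile normalization, a setting chosen for this count after seeing the data, against 32.1% of plant probe sets. The pseudocount and a division by the array median or trimmed mean could not lower this count, by their construction. After quantile normalization the SD of WRKY70 went from 0.10 to 0.22, that of WRKY33 from 0.130 to 0.037, and those of WRKY40, WRKY18, ZAT10 and ZAT12 shrank to 0.22, 0.17, 0.13 and 0.12, while that of WRKY53 was 0.30. The cause was not tested. With 1 array left out, the SD ran from 0.012 to 0.407 for WRKY40, 0.023 to 0.170 for WRKY33, 0.133 to 0.398 for WRKY53, 0.039 to 0.347 for WRKY18, 0.062 to 0.144 for WRKY70, 0.107 to 0.316 for ZAT10 and 0.065 to 0.297 for ZAT12. No paired analysis was possible because there was only 1 group.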
